A study of Mus musculus with 2 samples.

Results

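The genes of endoplasmic reticulum (ER) stress signalling and ER quality control described here are Atf6, Mbtps2, Sec63, Hsp90b1, Edem2, Ngly1, Yod1, Plaa, Ubqln2 and Casp12. They were chosen by name from the genes that the authors tied to a YTHDF2 peak, so they are 10 of the 1285 genes in the authors' gene table, and their having a peak there is no finding. All peaks over their gene bodies were then taken from the final peak list, which gave 28 of the 9271 peaks. Of these, 13 are among the 1541 peaks of the gene table, which marks peaks at start codons, stop codons, coding sequence and untranslated regions (UTRs), and 15 are not in that table.

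The series held 1 YTHDF2 RNA immunoprecipitation (RIP) library and 1 input library, both of wild-type C2C12 myotubes with batch label 1 and without added treatment. C2C12 is a mouse myoblast line. Its cells were fused into myotubes in 2% horse serum for 4 to 5 days. Peaks were called on the RIP library over input with no replicate. Each interval below thus covers counting error in the RIP library alone, and nothing could be set against replicate spread.

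YTHDF2 is a cytoplasmic protein that binds N6-methyladenosine (m6A) in RNA and recruits the deadenylation machinery. The ER folds and glycosylates secreted and membrane proteins, and in muscle a specialised part of it, the sarcoplasmic reticulum, stores calcium. Unfolded protein in the ER sets off sensors such as ATF6, while proteins that fail to fold are moved back to the cytosol, stripped of their glycans, ubiquitinated, extracted by the ATPase p97 (Vcp) and handed to the proteasome, a route called ER-associated degradation (ERAD).

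The members fall along that route. Atf6 encodes a membrane-bound transcription factor and Mbtps2 the site-2 protease that releases it in the Golgi. Sec63 encodes a partner of the translocation channel that recruits the chaperone BiP, and Hsp90b1 encodes GRP94, the HSP90 chaperone of the ER lumen. Edem2 encodes a mannosidase-family protein that marks glycoproteins for degradation, and Ngly1 the cytosolic glycanase that removes their N-glycans. Yod1 encodes a deubiquitinase and Plaa a ubiquitin-binding cofactor, both working with p97, and Ubqln2 encodes a shuttle that carries ubiquitinated proteins to the proteasome. Casp12 encodes a mouse caspase found at the ER.

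The peaks outside the gene table include the member peak of highest fold enrichment, so the summit side of 4 such intronic peaks is shown first. Coordinates are 1-based in GRCm38, the build also called mm10, and bases run 5′ to 3′ on the strand of the gene. Capitals mark GGAC with an A, a C or a T after it, which is a core form of the motif around m6A. The stretches come from Plaa intron 6 (chr4:94585335-94585534, minus strand), Sec63 intron 8 (chr10:42799930-42800116, plus strand), and Casp12 introns 4 and 8 (chr9:5351165-5351356 and chr9:5357870-5358027, plus strand).
Plaa intron 6: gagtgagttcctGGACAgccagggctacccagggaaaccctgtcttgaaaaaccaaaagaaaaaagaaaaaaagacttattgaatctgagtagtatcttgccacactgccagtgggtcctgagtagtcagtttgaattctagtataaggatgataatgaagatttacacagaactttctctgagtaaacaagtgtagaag
Sec63 intron 8: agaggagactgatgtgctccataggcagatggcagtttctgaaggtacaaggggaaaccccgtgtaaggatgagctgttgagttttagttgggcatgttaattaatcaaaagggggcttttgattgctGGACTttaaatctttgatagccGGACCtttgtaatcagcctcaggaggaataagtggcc
Casp12 intron 4: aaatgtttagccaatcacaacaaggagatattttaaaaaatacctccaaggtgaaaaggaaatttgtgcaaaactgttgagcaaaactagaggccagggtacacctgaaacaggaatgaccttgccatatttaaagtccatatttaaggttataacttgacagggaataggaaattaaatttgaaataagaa
Casp12 intron 8: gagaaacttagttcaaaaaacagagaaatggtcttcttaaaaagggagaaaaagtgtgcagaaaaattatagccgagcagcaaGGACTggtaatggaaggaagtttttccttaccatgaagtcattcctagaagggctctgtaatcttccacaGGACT
The Plaa stretch holds 1 such word, the Sec63 stretch 2, the Casp12 intron 4 stretch 0 and the Casp12 intron 8 stretch 2.

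Of the 13 gene-table peaks, 5 lie at the first exon and run into the intron that follows it, and the coding bases under 4 of them are shown because these peaks join coding and intronic sequence. Capitals mark the start codon. The stretches are from Ngly1 (chr14:16249367-16249497, plus strand), Hsp90b1 (chr10:86705307-86705355, minus strand), Plaa (chr4:94602877-94603025, minus strand) and Mbtps2, where the peak starts after the start codon (chrX:157598496-157598561, minus strand).
Ngly1 exon 1: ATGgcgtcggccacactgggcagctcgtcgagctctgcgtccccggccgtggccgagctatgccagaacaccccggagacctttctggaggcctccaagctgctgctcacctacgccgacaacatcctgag
Hsp90b1 exon 1: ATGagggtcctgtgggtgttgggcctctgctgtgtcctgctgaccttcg
Plaa exon 1: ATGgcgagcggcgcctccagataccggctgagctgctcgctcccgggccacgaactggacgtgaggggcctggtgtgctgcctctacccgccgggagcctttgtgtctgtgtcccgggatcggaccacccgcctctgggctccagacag
Mbtps2 exon 1: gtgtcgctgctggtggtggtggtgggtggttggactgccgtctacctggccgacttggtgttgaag
The whole Edem2 peak is shown because most of it is intron in the transcript with the longest coding sequence: its capitals are the end of coding exon 7 and its lower case is intron 7 of that transcript (chr2:155713163-155713382, minus strand).
Edem2 exon 7 and intron 7: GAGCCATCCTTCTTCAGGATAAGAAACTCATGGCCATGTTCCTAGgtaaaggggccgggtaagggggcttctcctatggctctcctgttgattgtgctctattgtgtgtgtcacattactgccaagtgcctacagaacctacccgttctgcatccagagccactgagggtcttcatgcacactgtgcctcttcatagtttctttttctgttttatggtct
Where the peaks lie in 3′ UTRs, 30 bases around the summit are given for the highest and the lowest fold enrichment among them, Casp12 (chr9:5372232-5372261, plus strand) and Atf6 (chr1:170709738-170709767, minus strand).
Casp12 3′ UTR summit: ggaataagataaagaggtttatgtccactg
Atf6 3′ UTR summit: gagaacaggaagtgcgctgcttgtcaccgt

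For each peak the list gives the authors' pileup at the summit, read here as RIP fragments, and a fold enrichment, the RIP pileup over the local input background with 1 added to each. A fragment counted as 0.9 pileup units, and the median peak of the whole list held 29 fragments (8 to 349). Intervals in parentheses are exact 95% Poisson limits for the number of fragments, at a fixed background. They cover the counting error of the RIP fragments alone and leave out that of the input. PCR copies are not independent molecules, and the total depth of either library is unknown. Neither expression nor library strand is known here: a fold enrichment is a ratio within the RNA present, whether a peak is called also depends on how much of that RNA there is, and reads of overlapping genes cannot be told apart.

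Across the members, the 28 peaks had a median fold enrichment of 4.54, against 4.40 over all 9271 peaks. At 4-fold or more stood 15 of the 28, or 53.6%, against 59.6% of all peaks. A q-value of 1e-05 or less was reached by 23 of the 28, or 82.1%, against 71.5% of all peaks. The ER genes' peaks lay within the range of the whole list, 1.24 to 20.7, and ran between 2.00-fold at the Hsp90b1 start codon and 8.96-fold in Plaa intron 6. The 13 gene-table peaks of the members had a median of 3.17, against 3.25 for all 1541 gene-table peaks, and their 12 intronic peaks had a median of 5.07, against 4.63 for all 6757 intronic peaks. Another 3 member peaks overlapped exons of minor transcripts, with a median of 5.06. The nearest class of the whole list is wider, with a median of 4.14. It holds all 718 peaks outside the gene table that touch an exon of any annotated gene.

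**Figure D1:**
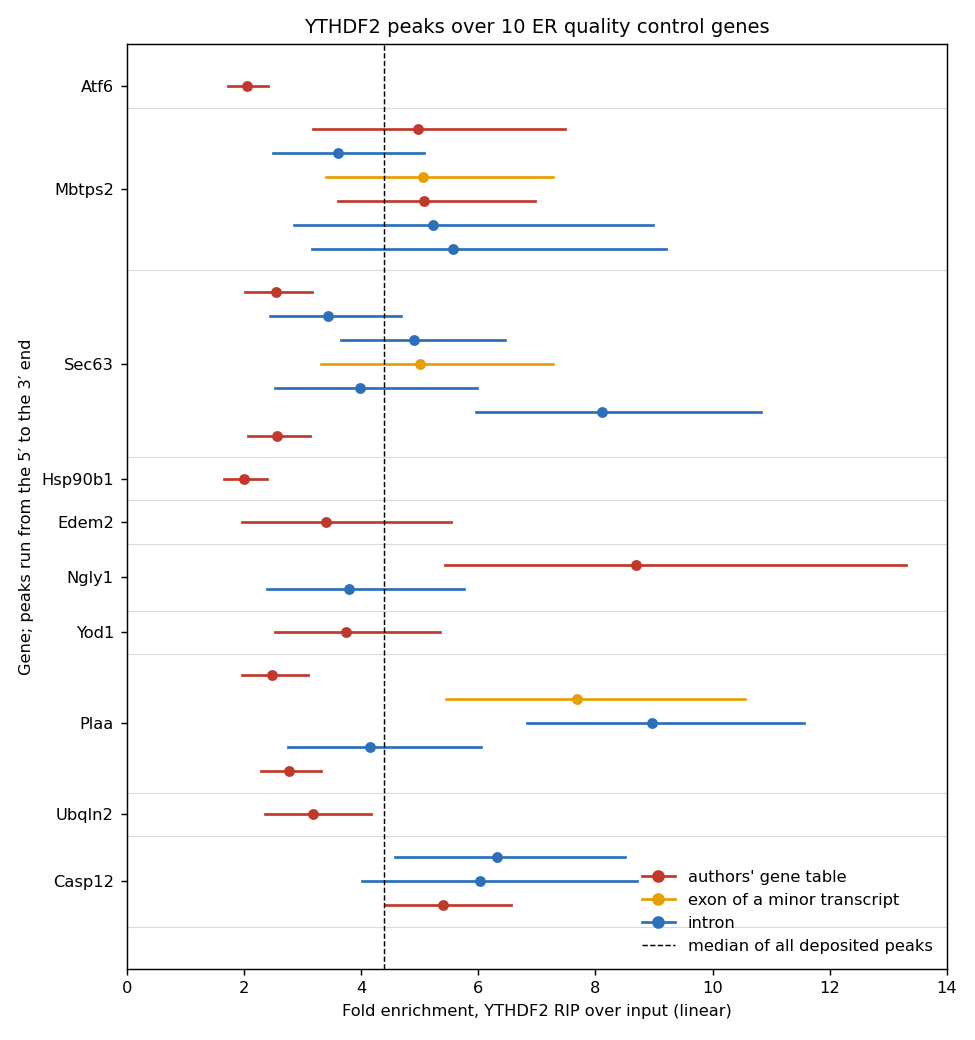
Fold enrichment of YTHDF2 RIP over input (x axis, linear) for each of the 28 peaks of the 10 genes. Rows are peaks, those of a gene from its 5′ to its 3′ end. Bars show the 95% counting interval of the RIP fragments at a fixed input background. Colours show the place of the peak, and a dashed line the median of all 9271 peaks, 4.40. Plaa intron 6, Ngly1 at its start codon and Sec63 intron 8 are the 3 peaks above 8-fold, and the peaks of Atf6 and Hsp90b1 stand near 2-fold.

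At the sensor step, Atf6 had 1 peak, of 147 RIP fragments at its summit over an input background of 64, a fold enrichment of 2.05 (1.74 to 2.41). It lay wholly in the 3′ UTR in the last of 16 exons (chr1:170709592-170709801), with its summit 128 nucleotides after the stop codon, where the 30 bases printed above were read. This was the member peak with the most fragments and the highest background, and it ranked 8982 of 9271 by fold enrichment. The rest of the 163 kb gene carried no peak.

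Mbtps2 stood apart from Atf6 in having 6 peaks over its 63.3 kb, at input backgrounds of 1.08 to 7.0. The first, at exon 1 (chrX:157598111-157598561), had 21 RIP fragments over a background of 3.0, which gave 4.98 (3.17 to 7.47), and its summit was on the last base of the exon. It covers 66 bp of coding sequence and 385 bp of intron 1. The authors' table gives Mbtps2 a second peak (chrX:157568747-157569263) of 36 fragments over 5.58, a fold enrichment of 5.08 (3.60 to 6.97), and lists it for Yy2 as well. Yy2, the gene of a zinc-finger transcription factor, lies inside Mbtps2, and all 517 bp of the peak are in intron 5 of the Mbtps2 transcript with the longest coding sequence.

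The other 4 Mbtps2 peaks are outside the gene table. They were in intron 3 at 3.61 (2.49 to 5.08), in intron 5 at 5.06 (3.40 to 7.27), in intron 6 at 5.24 (2.85 to 8.99) and in intron 7 at 5.56 (3.17 to 9.20). Their summits held 11 to 31 fragments, few enough that all 4 intervals overlap. The intron 5 peak overlaps an exon of a retained-intron transcript and 92.3% of its bases are masked as repeats. Of protein-coding genes, 383 of 21924, or 1.75%, had 6 or more peaks, and 6.02% of the 2192 genes of like length had.

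Among translocation and folding genes, Sec63 had more peaks than any other member: 7 over 71.0 kb, a number reached by 1.30% of protein-coding genes and by 4.38% of genes of like length. Its exon 1 peak (chr10:42761795-42762124) had 78 RIP fragments over 27, a fold enrichment of 2.54 (2.02 to 3.16). Its 3′ UTR peak (chr10:42831800-42832005), 2871 nucleotides after the stop codon, had 93 fragments over 32, a fold enrichment of 2.57 (2.08 to 3.14). Both ends of the transcript thus had high fragment numbers and high input.

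Between them, 5 Sec63 peaks outside the table ran from 3.43-fold in intron 1 to 8.12-fold in intron 8, with a median of 4.91. The highest (chr10:42799930-42800179), whose sequence is given above, had 44 fragments over a background of 4.0, with an interval of 5.95 to 10.8. Its interval lies above those of both gene-table peaks of Sec63, and it ranked 349 of all peaks. A second intron 8 peak 365 bp away had 21 fragments over the same background of 4.0, a fold enrichment of 3.98 (2.54 to 5.98). The intron 2 peak was 4.91-fold (3.66 to 6.46), and the intron 6 peak, overlapping exons of 2 retained-intron transcripts, was 5.00-fold (3.31 to 7.28). An antisense non-coding gene, Gm26860, overlaps the exon 1 peak.

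Hsp90b1, the other gene of this step, had 1 peak, at its start codon (chr10:86705038-86705364). It held 119 RIP fragments over an input background of 53, and its fold enrichment of 2.00 (1.66 to 2.39) was the lowest of the 28. The peak covers 9 bp of 5′ UTR, the 49 coding bases of exon 1 printed above and 269 bp of intron 1, where a miRNA gene, Gm25745, is annotated. It had the second highest input background of the members after Atf6.

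For deglycosylation and ERAD, Edem2 and Ngly1 both had gene-table peaks of few fragments and low background. Their intervals overlap only between 5.43 and 5.54, which does not show that the 2 fold enrichments are alike. Edem2 had 1 peak of 14 RIP fragments over 3.0, a fold enrichment of 3.40 (1.97 to 5.54). Its −log10 q-value of 2.02 was the lowest of the members, and 3.14% of all peaks were at or below it. The sequence above shows its 45 coding bases of exon 7 followed by 175 bases of intron 7, and the summit lay 85 bp into the intron. Exons of a processed transcript and a retained-intron transcript of Edem2 also lie there, and with them 214 of the 220 bp, or 97.3%, are annotated as exon.

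Ngly1 had its main peak at the start codon (chr14:16249309-16249612), with 19 RIP fragments over 1.08, which gave 8.69 (5.43 to 13.3). This was the highest fold enrichment of the 13 gene-table peaks of the members, and it ranked 210 of all peaks. Its background, shared with Mbtps2 intron 6, was the lowest of the members and also the lowest of the whole list, 1.08. The fold enrichment of 8.69 thus rests on the floor of the input background. The interval does not cover error in that floor. The authors' table also lists this peak for Oxsm, a mitochondrial fatty acid synthesis gene that starts on the opposite strand beside Ngly1. A second peak, in intron 10, held 20 fragments over 4.0, a fold enrichment of 3.80 (2.40 to 5.76).

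At the p97 and shuttle step, Plaa had 5 peaks over 35.7 kb, and its 2 strongest lay side by side in intron 6. The peak at chr4:94585015-94585596 had 57 RIP fragments over an input background of 4.84, a fold enrichment of 8.96 (6.83 to 11.6), the highest of all member peaks and number 178 of the list. Its neighbour, 244 bp away (chr4:94585841-94586110) and overlapping an exon of a processed transcript, had 36 fragments over 3.35, a fold enrichment of 7.68 (5.45 to 10.5). The intron 9 peak was 4.16-fold (2.75 to 6.06).

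The ends of the Plaa transcript were lower in fold enrichment and higher in input background, in the manner of Sec63. At the start codon (chr4:94602749-94603061) were 76 RIP fragments over 27, a fold enrichment of 2.48 (1.96 to 3.09), and at the stop codon (chr4:94569198-94569406) 116 over 37, a fold enrichment of 2.77 (2.30 to 3.32). Neither interval reaches those of the 2 intron 6 peaks. Of genes of like length to Plaa, 1.09% had 5 or more peaks, against 2.33% of all protein-coding genes, which makes Plaa the member with most peaks for its length class.

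Yod1 and Ubqln2 each had 1 peak, in the 3′ UTR. The Yod1 peak (chr1:130722534-130723045) had 28 RIP fragments over 6.0, a fold enrichment of 3.74 (2.54 to 5.35), at 3178 nucleotides after the stop codon. It includes a run of 31 T, and Yod1 lies within Pfkfb2 on the opposite strand. The Ubqln2 peak (chrX:153500985-153501422) had 49 fragments over 13.2, a fold enrichment of 3.17 (2.37 to 4.17), at 700 nucleotides after the stop codon of its single-exon gene. Both stood near the median of gene-table peaks, 3.25.

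Casp12, the ER-associated caspase, had 3 peaks over 27.6 kb, all above 5-fold. Its 3′ UTR peak (chr9:5372087-5372376), 517 nucleotides after the stop codon, had 101 RIP fragments over an input background of 16, a fold enrichment of 5.41 (4.41 to 6.56). The −log10 q-value of 31.6 was the highest of the 28 peaks, and 99.4% of all peaks were at or below it. Peaks in intron 4 and intron 8 had 41 fragments over 5.0 and 26 over 3.05, or 6.32-fold (4.58 to 8.51) and 6.02-fold (4.02 to 8.71). All 3 intervals overlap, which does not show that the 3 fold enrichments are alike. The fragment number was highest in the 3′ UTR.

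**Figure D2:**
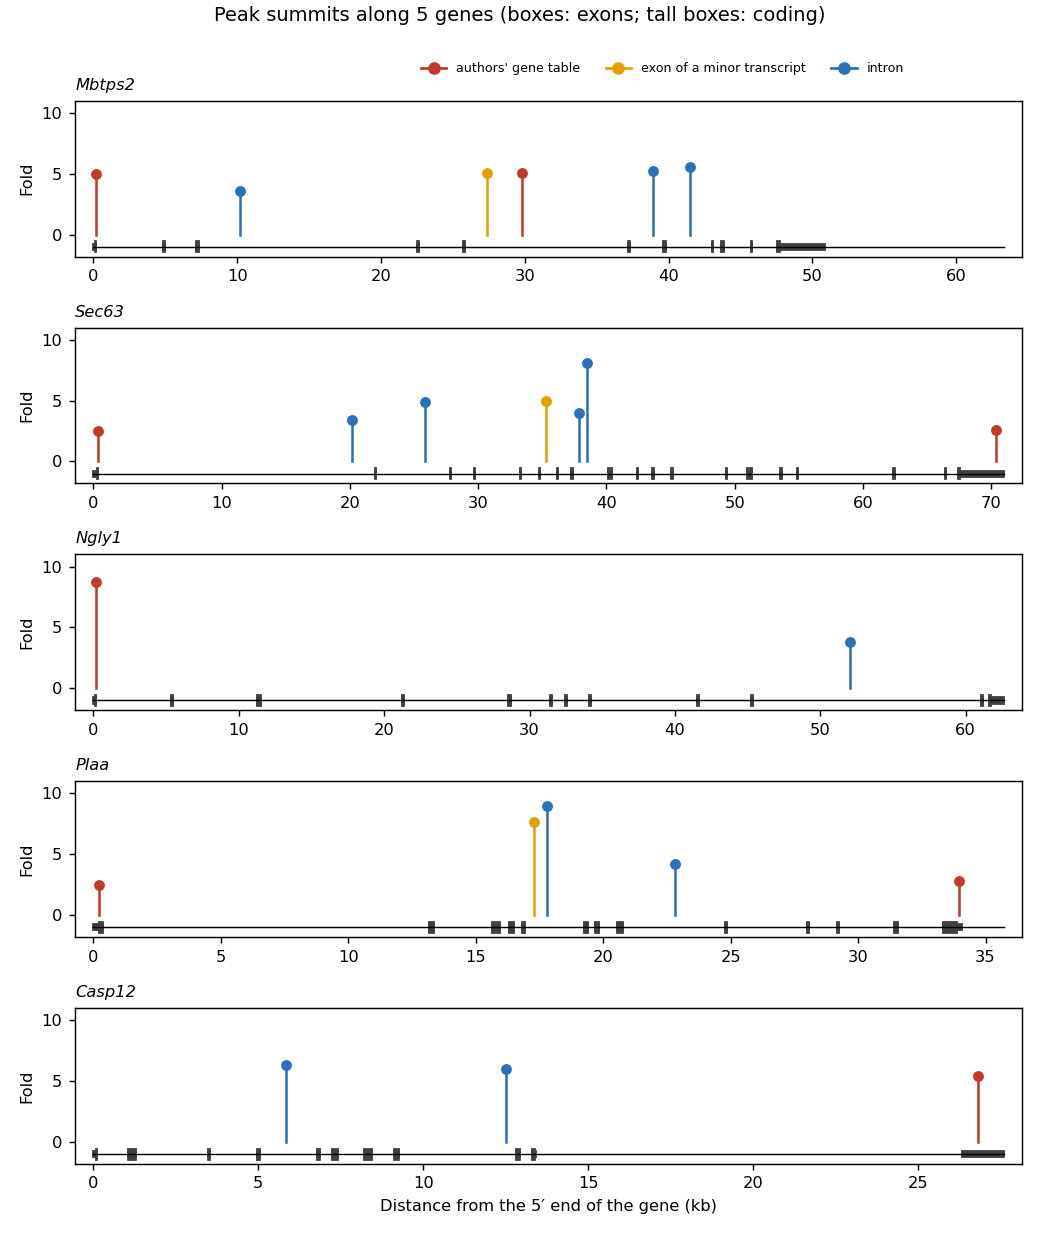
Peak summits along the 5 genes with more than 1 peak: distance from the 5′ end of the gene in kb (x axis), fold enrichment (y axis) and exons as boxes, with colours for peaks inside and outside the gene table. In Sec63 and Plaa the gene-table peaks, at 2.48 to 2.77, sit at the ends of the gene and the higher peaks lie between them, up to 8.12 in Sec63 and 8.96 in Plaa. The gene-table peaks of these 2 genes also had the higher input background.

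Peaks outside the gene table were found in 5 of the 10 genes. Their median was 7.68 in Plaa, against 2.48 and 2.77 for its gene-table peaks, and 4.91 in Sec63, against 2.54 and 2.57. In Mbtps2 the medians were close, 5.15 outside against 5.03 inside the table, as in Casp12, with 6.17 against 5.41. Ngly1 ran the other way, with 3.80 outside against 8.69 inside the table. The input background also differed: in Plaa it was 3.35 to 4.84 outside the table against 27 and 37 inside, in Sec63 3.70 to 9.0 against 27 and 32, and in Ngly1 4.0 against 1.08. In Casp12, whose folds were close, it was 3.05 to 5.0 against 16, and in Mbtps2 1.08 to 7.0 against 3.0 and 5.58.

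Over the whole list, fold enrichment was lower where input background was higher, and member peaks followed the same course. Part of this is set by the peak call, since a peak at low background needs a larger fold to be listed. The lowest fold of the list was 3.40 at backgrounds below 2 and 1.24 at 32 or more. That the members follow the trend is therefore no finding about them. Where the background was 32 or more, the 3 member peaks had a median of 2.05, against 2.11 for all 507 such peaks. Below 2, the 3 member peaks had a median of 5.56, against 6.10 for all 1891. Member peaks were therefore read against peaks within 25% of the same background. The Plaa intron 6 peak was above 99.1% of 2075 such peaks, the Casp12 3′ UTR peak above 97.9% of 959, the Sec63 intron 8 peak above 97.3% of 1707 and the second Plaa intron 6 peak above 94.9% of 1761. The Casp12 intron 4 peak was above 90.9% of 2058, and Ngly1 at its start codon above 87.6% of 858. Atf6 was above 54.1% of 181, and Hsp90b1 above 33.6% of 253. Edem2 was above 1.90% of 1261. In Sec63, the exon 1 and 3′ UTR peaks were above 45.3% of 503 and 55.3% of 434. Its peaks in introns 1, 2 and 6 were above 37.2% of 1614, 83.2% of 1495 and 51.7% of 1792. Its second intron 8 peak was above 21.7% of 2249. In Plaa, the start codon, stop codon and intron 9 peaks were above 40.6% of 503, 73.0% of 367 and 30.9% of 1695. The order of the members thus differs from that by fold alone, with the Casp12 3′ UTR next to the highest intronic peaks of Plaa and Sec63.

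**Figure D3:**
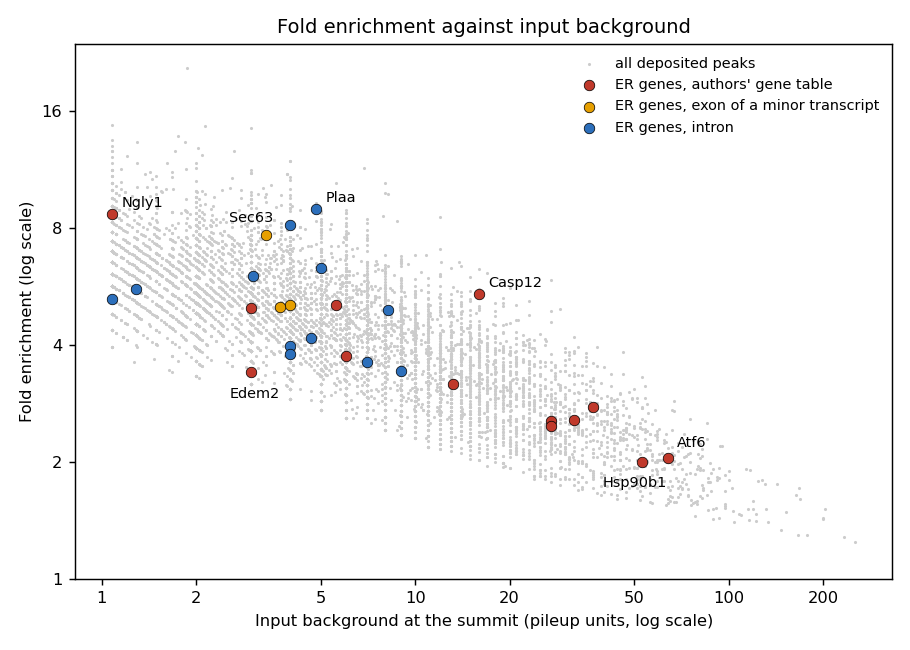
Fold enrichment (y axis, log scale) against the input background at the summit in pileup units (x axis, log scale) for the 28 member peaks, coloured by place, over all 9271 peaks in grey. Atf6 and Hsp90b1 sit at the right, at backgrounds of 64 and 53, and the Plaa, Sec63 and Casp12 peaks named lie along the upper edge of the cloud.

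The 13 gene-table peaks were then split by the bases they cover. In the authors' table, 5 touch a 3′ UTR alone, 4 a start codon, 2 a stop codon and 2 coding sequence alone. The second Mbtps2 peak is marked at both codons, and the first touches coding sequence and 5′ UTR without a codon mark. Of all 1541 gene-table peaks, 44.9% touch a 3′ UTR alone, 7.20% a start codon, 15.8% a stop codon and 20.2% coding sequence alone. Counting exons of any transcript of the gene, 6 of 6 member peaks at the stop side lay wholly in exons, while 0 of 5 at the start side and 0 of 2 in coding sequence alone did. For the whole table these shares were 93.2% of 986, 54.9% of 266 and 57.6% of 314. Of the 2 coding peaks, Edem2 missed this by few bases, at 97.3% exonic, and Sec63 was 28.5% exonic. The second Mbtps2 peak, counted at the start side, is wholly intronic for the transcript with the longest coding sequence and 68.1% exonic over all transcripts.

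The peaks at first exons were rich in G and C. GC content was 74.2% in Sec63, 73.0% in Ngly1, 70.0% in Plaa, 66.1% in Mbtps2 and 62.4% in Hsp90b1, against a median of 43.5% over all peaks and 31.0% in the Casp12 3′ UTR peak. Each of these 5 peaks crosses the exon boundary into intron 1, with between 115 bp in Ngly1 and 385 bp in Mbtps2 of intron. The labels do not say whether DNA was removed from the samples and describe the library steps in terms of DNA, and the part of that in peaks over introns and gene starts was not tested.

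**Figure D4:**
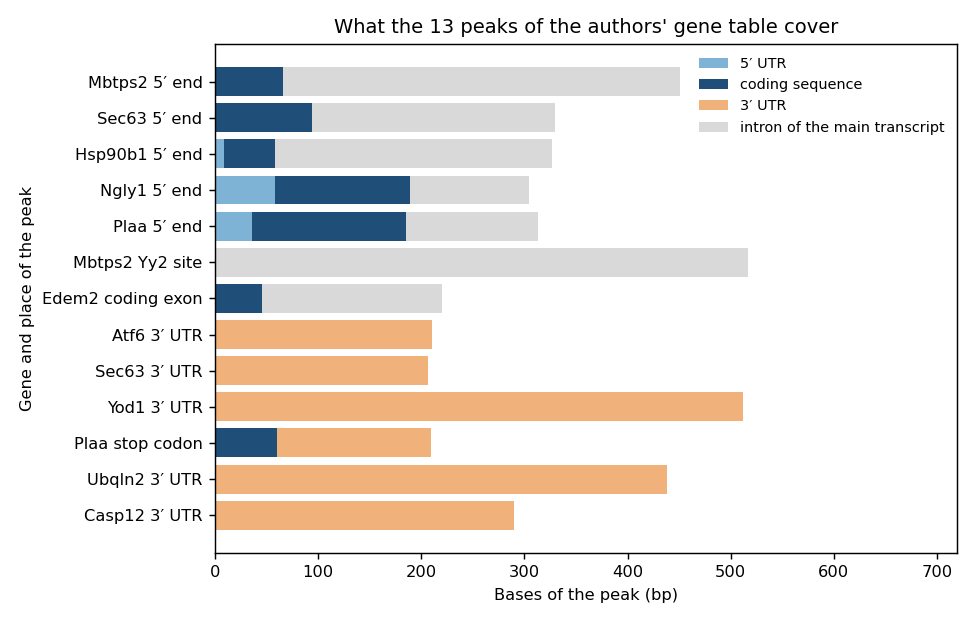
Bases of each of the 13 gene-table peaks (x axis, bp) that fall in 5′ UTR, coding sequence, 3′ UTR and intron of the transcript with the longest coding sequence, 1 row per peak. The 6 peaks at the stop side hold no intron, and the peaks of Sec63, Hsp90b1 and Mbtps2 at exon 1 are mostly intron, with 236, 269 and 385 bp.

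The motif marked in the printed sequences was found in a minority of member peaks. That motif, GGAC with an A, a C or a T after it, occurred on the strand of the gene within 100 bp of the summit in 9 of the 28 member peaks, or 32.1%, against 36.7% of 8619 peaks over genes in all, and on the other strand in 39.3% of member peaks against 41.4%. Its 3 forms cannot overlap one another. Repeats made up the larger share of the bases in 28.6% of member peaks, against 34.9% of all peaks. A search of the genome with each peak's sequence found its own site for all 28 and no other match of at least 90% identity over 80% of the length for any of them.

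To see how far the members stand for their pathway, lists of 123 genes were made for the unfolded protein response, ER folding, translocation, ERAD, p97 cofactors and ER stress cell death, with the members among them. In the gene table were 15 of the 123, or 12.2%, against 5.82% of all 21924 protein-coding genes. That count contains the 10 members, which had to be there, and the other 113 genes had 5 in the table. Leaving out genes chosen for a table peak lowers the share by construction, so neither count measures the pathway in the table. Over gene bodies, 41 of 123 had a peak, or 33.3%, against 15.0% of protein-coding genes, and of the other 113 genes 31 did, or 27.4%. The 113 genes had a median length of 20.9 kb, against 17.4 kb for all protein-coding genes. The share with a peak anywhere over the gene was thus above that of all protein-coding genes with and without the members. With expression unknown, the lists could not be matched to other genes in the amount of RNA. The difference is therefore not read as a trait of the pathway. The lists were made with earlier results of these data known, so these shares are descriptions.

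The 5 further genes in the gene table were Ube4a, a ubiquitin chain elongation factor, at 4.02 (3.30 to 4.85), Srp9, a subunit of the signal recognition particle, at 3.53 (2.96 to 4.17), Uggt2, a glycoprotein glucosyltransferase of the folding check, at 3.20 (2.29 to 4.36), the survival gene Bcl2 at 3.01 (2.05 to 4.28), and Ubxn4, an ER-anchored p97 adaptor, at 1.69 (1.44 to 1.98). All 5 peaks touch the 3′ UTR.

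By step of the pathway, 8 of 18 genes of the p97 list, or 44.4%, had a peak over the gene body, of which 3 are members. The share of all protein-coding genes was 15.0%, and at the shares of genes of like length 2.50 of the 18 would have one. Members were chosen for having a peak, so they raise the count of every list. The p97 enzyme gene Vcp had 3 peaks outside the table, the highest at 5.67 (4.14 to 7.59). The ubiquitin shuttle Rad23b had 4, the highest at 4.77 (3.60 to 6.21). In the ERAD list 10 of 25 had a peak, or 40.0%, against 3.83 by gene length. Of these 10, 2 are members, and among the others was the ER ubiquitin ligase March6 with 4 peaks, the highest at 5.65 (3.74 to 8.22). In the translocation list it was 8 of 24, or 33.3%, against 3.05 by gene length, and 1 of them is a member. Among the others were Sec61g, a subunit of the channel, at 8.27 (5.74 to 11.6) and its partner Sec62 at 7.83 (5.19 to 11.4). The folding list had 7 of 24, against 3.48 by gene length, with Pdia3, a disulfide isomerase, at 5.36 (3.58 to 7.75). The cell death list had 3 of 12, against 2.65 by gene length. Each of these 2 lists holds 1 member.

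The unfolded protein response list had 5 of 20, against 3.25 by gene length. Besides Atf6 and Mbtps2, these were the sensor Ern1 at 3.92 (2.59 to 5.70), the translation factor subunit Eif2s1 at 5.65 (3.71 to 8.28) and the stress transcription factor gene Nfe2l2 at 2.51 (2.02 to 3.08). No peak lay over the third sensor, Eif2ak3, over the response factors Xbp1, Atf4 and Ddit3, over Mbtps1, the site-1 protease that cuts ATF6 before Mbtps2, or over the BiP gene Hspa5. With expression unknown, the absence of a call does not show that these transcripts were unbound.

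**Figure D5:**
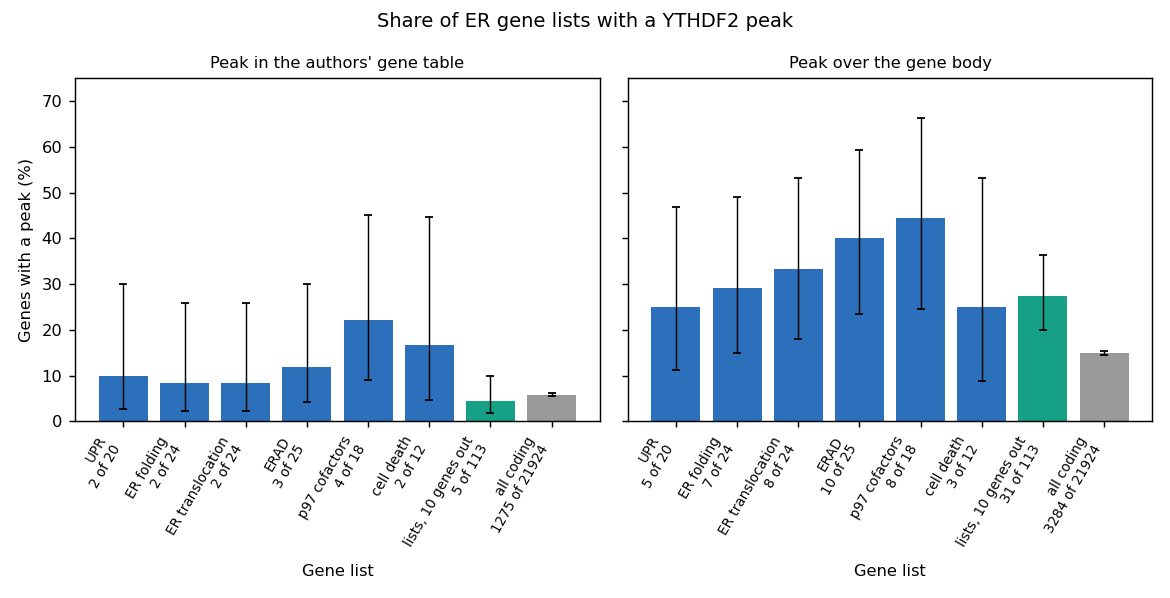
Percent of each ER gene list with a YTHDF2 peak (y axis), in the authors' gene table (left) and over the gene body (right), with Wilson 95% intervals as bars and all protein-coding genes at the far right. The lists hold the 10 members, which were chosen for being in the gene table. Without them 27.4% of the list genes had a peak over the gene body, against 15.0% of all protein-coding genes.

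The authors' deposited table of KEGG pathways gave protein processing in the ER 18 of 152 annotated genes against 8.84 expected, with p = 0.00298 and an FDR of 0.0543 in that table, where it was number 12 of 219 pathways. The 10 members are among those 18, and both rest on the same peaks, so the term is not independent evidence on the members. The other 8 genes (Ube2d3, Rbx1, Ube2g1, Bcl2, Hspa4l, Skp1a, Dnajc1 and Bag1) are largely cytosolic ubiquitin and chaperone genes. The median of each gene's best gene-table fold was 3.29 in the members (2.00 to 8.69), against 2.63 in these 8 (1.47 to 4.51). The input background of those peaks had a median of 14.6 in the members, against 32 in these 8. In the authors' deposited table of Gene Ontology terms, response to ER stress had 6 of 79 genes against 4.85 expected with an FDR of 0.622, and the ERAD pathway 3 of 31 against 1.90 expected with an FDR of 0.601. Unfolded protein binding had 6 of 48 against 2.91, with an FDR of 0.362. The broad term endoplasmic reticulum was below expectation, with 58 of 1000 against 61.4, as was endoplasmic reticulum membrane, with 9 of 223 against 13.7.

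The labelled cell type was read against muscle genes. In the gene table were 4 of 15 muscle markers (Mylpf, Tnnt1, Tnni2 and Neb), or 26.7%, against 5.82% of protein-coding genes, and 0 of 3 neuronal, 0 of 3 endothelial and 0 of 3 immune markers. Over gene bodies it was 5 of 15 muscle markers, with Ttn added, or 33.3%, against 15.0% of protein-coding genes. At the shares of genes of like length, 1.90 of the 15 would have a peak. Of the 3 neuronal markers 1 had a peak, Syn1, against 1.06 by gene length. At 5.82%, lists of 3 genes would mostly hold none in any case, so the counts of 0 say nothing of the cells present. The muscle markers Myog, Myod1, Ckm, Acta1, Des, Myh3, Myh8, Mymk, Casq1 and Ryr1 had no peak. A peak marks enrichment over input, so these counts do not measure how strongly a marker is expressed.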

How the data were processed

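RNA bound to YTHDF2 in C2C12 myotubes (1 RIP library) was compared with 1 input library, and the IgG control that the design text names was not analysed here. Per the labels, paired-end reads of 150 bp were sequenced, and per the series' design text Bowtie aligned them to mm10 and MACS called the peaks. The submitters' processing notes also list DiffBind, deepTools, HOMER, Picard, Trim Galore and FastQC, without versions or settings. Per the file headers, the authors deposited a pileup signal, a fold enrichment (ratio of RIP to input), and −log10 of a p-value and a q-value for every peak. The authors' values for a peak served to describe, rank or filter within the list. Their KEGG and GO tables give numbers of genes with a Fisher p-value.

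Every pileup was a whole multiple of 0.9 (tolerance 1e-06), taken as 1 RIP fragment. The input background was solved from pileup and fold enrichment, and its Poisson tail matched the −log10 p-value to 0.01 in 100% of cases. The interval script was tested on simulated data. Gene models were GENCODE M21 on GRCm38, the transcript with the longest coding sequence was used, and a peak was placed in a gene at 1 bp of overlap or more. Genes of like length share a decile of protein-coding gene length. Python 3.11.15, pandas 2.3.3, numpy 2.4.6, scipy 1.17.1 and pyfaidx 0.9.0.4 were used. Alternatives were a fold enrichment of 4 or more, a q-value of 1e-05 or less, the peak centre or most of the peak inside the gene, and a ratio without the added 1.

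The members and gene lists were chosen with earlier results of these data known. Named were all 10 members with every peak, all list genes in the gene table, and by gene body up to 5 per list by fold enrichment. Genes named for having no peak, and those of the KEGG term, were chosen after their values were seen. With 1 library a group no test was run.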

Additional observations from a re-analysis of the deposited data

How the results depend on the processing

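Requiring a fold enrichment of 4 or more left 5 of the 10 members with a peak (Mbtps2, Sec63, Ngly1, Plaa and Casp12) and 15 of their 28 peaks. Under it 4 of 123 ER list genes stayed in the gene table, against 15 in the deposited list, and 26 had a peak over the gene body, against 41. The share of all protein-coding genes also fell, to 2.16% in the table and 10.7% over gene bodies. Under a q-value of 1e-05 or less, 9 members (Edem2 was lost), 23 peaks, 13 table genes and 35 body genes were left, and of all protein-coding genes 4.41% and 12.3%. Placing peaks by their centre gave 10 members, 28 peaks and 41 genes, and asking for most of the peak inside the gene also gave 28 peaks. Without the added 1 the median fold enrichment of member peaks was 5.11, against 4.54. No paired analysis was possible because there was 1 library a group, and for the same reason no replicate could be left out.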
